A study of Mus musculus with 12 samples.

Results

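C-type lectin receptors were compared between macrophages that had entered neuroblastoma spheres and macrophages of the same cultures that had stayed outside. The receptors named for the comparison were Clec1b, Clec7a, Clec4d, Clec4e, Clec4n, Clec5a, Clec10a, Clec12a, Mgl2 and Mrc1. Each gene was taken through probe sets annotated with its symbol alone, and where several existed the one brightest on average over the 12 arrays was used. This gave values for 9 of the 10 receptors, among 17097 genes of the array, and all 9 passed the filter on low values that left 12488 genes tested. Clec12a had no probe set of this kind, and its expression was not analysed here.

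All 4 groups held bone marrow-derived macrophages of C57BL/6 mice, which had been added to spheres of the mouse neuroblastoma line TT9423 grown on agar, in equal cell number. The groups were macrophages in spheres at 24 h, outside spheres at 24 h, in spheres at 48 h and outside spheres at 48 h. In-sphere cells were released by enzymatic digestion and selected on CD11b columns. The sources used here do not say whether outside cells went through digestion and selection too, and so handling and position cannot be told apart. The times are those of the sample titles, since the protocol text of every sample describes 24 h of co-culture. The 3 replicates of a group came from separate experiments, each a pool of wells. TT9423 is a single tumour line, and arrays of tumour cells without macrophages were not analysed here.

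C-type lectin receptors are surface proteins with a carbohydrate-recognition-like domain, through which myeloid cells bind microbial sugars and molecules of dying or stressed cells. Clec7a (Dectin-1) and Clec1b (CLEC-2) carry a single tyrosine motif in their own tail that recruits the kinase Syk, while Clec4d, Clec4e and Clec4n (Dectin-2) reach Syk through the Fc receptor gamma chain (Fcer1g), and Clec5a through DAP12 (Tyrobp). Mrc1 (CD206), Clec10a (CD301a) and Mgl2 (CD301b) are endocytic receptors for glycoproteins and are widely used as markers of alternatively activated macrophages.

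The promoters of 4 receptors are shown first, because Clec1b and Clec7a had the widest differences between compartments and because Clec4d and Clec4e are adjacent genes whose in-sphere differences had opposite signs at 48 h. For Clec4e that sign was given by the probe set used, while another probe set of the gene gave -0.12 ± 0.18. RefSeq windows of build GRCm38.p6 matched 8 of the 10 receptors, all but Clec4n and Clec10a, and Clec7a has 2 annotated start sites, of which the first is shown. Each sequence gives the 250 bases before the start site, 5′ to 3′ on the gene's strand, with motif matches in capitals. The windows are chr6:129397047-129397296 on the plus strand for Clec1b, chr6:129472780-129473029 on the minus strand for Clec7a, chr6:123261857-123262106 on the plus strand for Clec4d and chr6:123289872-123290121 on the minus strand for Clec4e.
Clec1b: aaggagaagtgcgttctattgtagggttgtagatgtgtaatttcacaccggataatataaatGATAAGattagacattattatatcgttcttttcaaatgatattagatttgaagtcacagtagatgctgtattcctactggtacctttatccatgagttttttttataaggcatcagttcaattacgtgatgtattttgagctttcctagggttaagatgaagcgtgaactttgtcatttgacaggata
Clec7a: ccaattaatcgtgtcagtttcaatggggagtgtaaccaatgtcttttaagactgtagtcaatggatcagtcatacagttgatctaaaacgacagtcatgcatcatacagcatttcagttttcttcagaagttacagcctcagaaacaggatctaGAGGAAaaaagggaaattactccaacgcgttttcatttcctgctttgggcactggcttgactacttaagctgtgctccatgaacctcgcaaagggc
Clec4d: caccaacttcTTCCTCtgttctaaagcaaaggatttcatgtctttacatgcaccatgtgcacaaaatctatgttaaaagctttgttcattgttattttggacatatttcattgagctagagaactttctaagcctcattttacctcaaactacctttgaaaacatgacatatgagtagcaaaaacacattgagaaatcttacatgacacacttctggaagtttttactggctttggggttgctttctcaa
Clec4e: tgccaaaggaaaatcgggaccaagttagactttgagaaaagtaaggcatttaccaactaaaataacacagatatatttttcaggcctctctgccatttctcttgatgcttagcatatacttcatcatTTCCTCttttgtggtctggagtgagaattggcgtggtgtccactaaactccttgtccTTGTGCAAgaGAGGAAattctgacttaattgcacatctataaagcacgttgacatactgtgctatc

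Short motifs of 3 kinds were searched on both strands, and they were picked after the sequences had been seen. GAGGAA, the core of a site for ETS factors of the PU.1 type, was found in 7 of the 8 windows, all but that of Clec1b, while 23.3% of 32851 RefSeq windows of the same length hold it. In Clec7a it lies 96 bases upstream of the start, in Clec4d 240 bases upstream, and in Clec4e 123 and 56 bases upstream. The Mrc1 window, which is not printed, has 3 such matches, 180, 167 and 35 bases upstream, and that of Clec5a has 2. GATAAG, the core recognised by GATA factors, was found in the Clec1b window alone, 188 bases upstream, against 6.55% of all windows. TTGCNNAA, letters of a C/EBP-type site, was found in Clec4e and Clec12a and in 9.56% of all windows; in Clec4e it lies 66 bases upstream, separated from an ETS match by a pair of bases. These matches describe the letters and were not tied to binding in these cells. In gene order Clec4n, Clec4d and Clec4e follow one another, Mgl2 is next to Clec10a, Clec7a lies between Clec1a and Olr1, and Clec1b between Clec12b and Clec9a.

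Of the 9 receptors, 4 differed between in-sphere and outside macrophages at 24 h and 6 at 48 h (limma, Benjamini-Hochberg adjusted p under 0.05). Mrc1 was higher in spheres at both times, and Clec1b and Clec7a were lower at both. Mgl2 was lower at 24 h. At 48 h Clec4e and Clec5a were higher and Clec4d was lower. Over all 12488 genes tested the share called was 29.4% at 24 h, with 15.8% higher and 13.6% lower, and 37.5% at 48 h, with 15.2% higher and 22.3% lower. Arrays of the compartments did not overlap for 4 and 6 of the 9 receptors, against 43.4% and 51.6% of all genes. The median log2 difference of the receptors was -0.03 at 24 h and 0.04 at 48 h, beside -0.0068 and -0.1008 for all genes tested. With so many genes called, the number of receptors called does not set the group apart, and the receptors are described one by one.

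**Figure D1:**
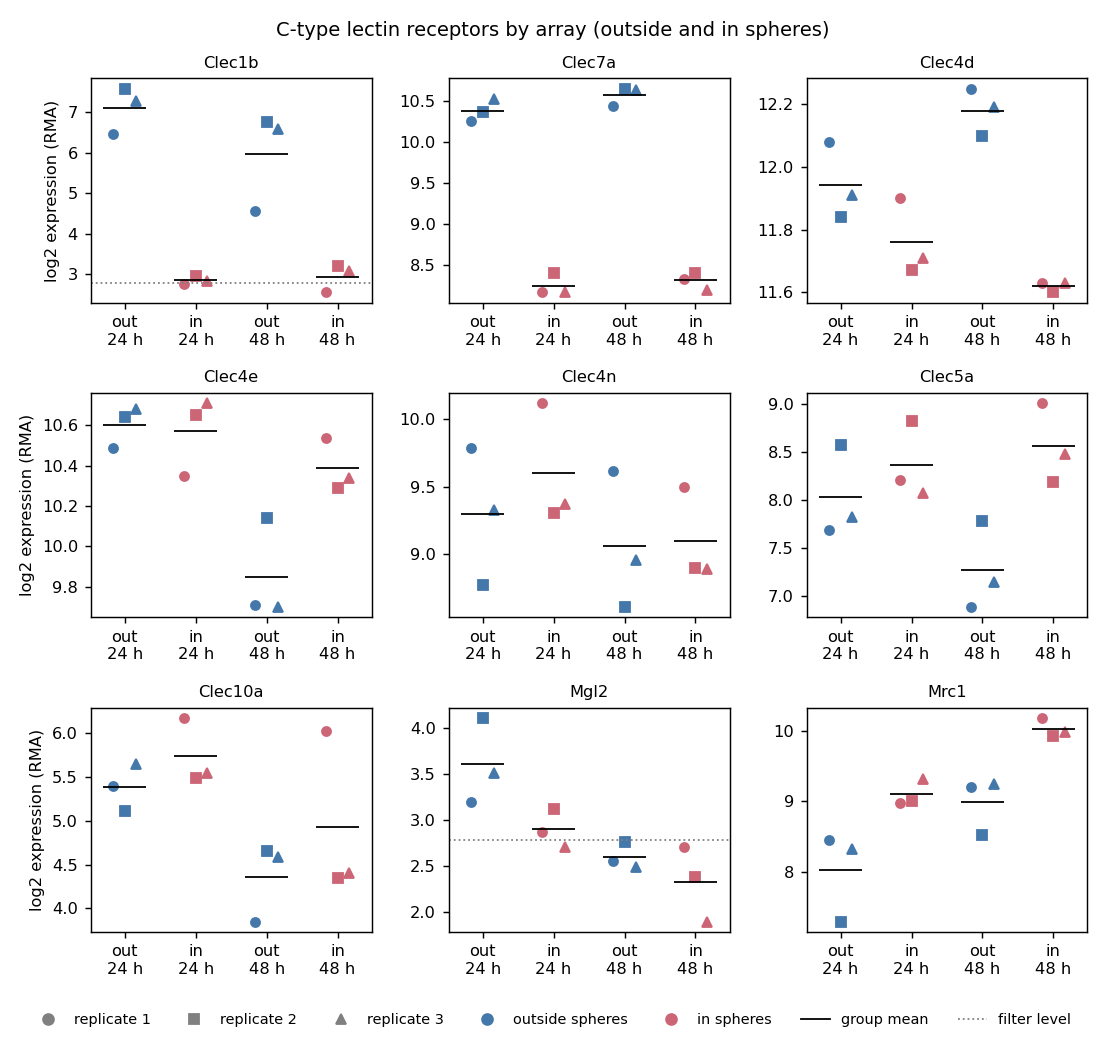
Log2 RMA expression (vertical axis) of the 9 receptors in each of the 12 arrays, by compartment and time, with the replicate shown by the marker shape, the group mean by a line and the filter level of 2.77 by a dotted line where it falls in range. Clec1b and Clec7a are lower in spheres at both times with no overlap, Mrc1 is higher, and the replicates of Clec4n lie further apart than its compartments.

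In this design a difference between arrays is a difference in relative RNA abundance, and fewer cells of a type and less RNA per cell cannot be told apart. Values of different probe sets are not compared with each other, because array signal does not measure molecules across genes.

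Clec7a, the receptor for fungal beta-glucan, had the lowest adjusted p of the 9 receptors at both times. Log2 expression in spheres at 24 h was 8.16, 8.40 and 8.17 in replicates 1 to 3, against 10.26, 10.36 and 10.52 outside. At 48 h it was 8.33, 8.40 and 8.19 in spheres against 10.44, 10.65 and 10.63 outside. Every in-sphere array was thus below every outside array, and values within a group lay within a narrow band. The difference was -2.14 ± 0.12 (SE, n = 3 against 3) at 24 h, a 4.40-fold lower level with an adjusted p of 1.01e-06, and -2.27 ± 0.12 at 48 h, 4.81-fold lower with an adjusted p of 3.02e-07. The order of group means was 10.57 outside at 48 h, 10.38 outside at 24 h, 8.31 in spheres at 48 h and 8.24 in spheres at 24 h. The time differences did not pass, at 0.19 ± 0.12 outside (adjusted p = 0.613), where they were 0.18, 0.29 and 0.12 in experiments 1 to 3, and 0.07 ± 0.12 in spheres (adjusted p = 0.883).

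Clec1b, the podoplanin receptor best known from platelets and megakaryocytes, had the widest difference of the 9. Outside spheres log2 expression was 6.46, 7.58 and 7.28 at 24 h and 4.57, 6.75 and 6.59 at 48 h. In spheres it was 2.77, 2.95 and 2.83 at 24 h and 2.55, 3.20 and 3.07 at 48 h. The in-sphere arrays were thus close to the filter level of 2.77, which 2 of 3 exceeded at each time, and all lay below every outside array. The difference was -4.26 ± 0.47 at 24 h (19.1-fold lower, adjusted p = 4.88e-05) and -3.03 ± 0.47 at 48 h (8.16-fold lower, adjusted p = 0.00035). The outside mean was 7.11 ± 0.58 (SD, n = 3) at 24 h and 5.97 ± 1.2 at 48 h. These overlap through replicate 1, which was the lowest outside array at both times, and the time difference of -1.14 ± 0.47 did not pass (adjusted p = 0.389). In all 4 groups replicate 2 was highest, a pattern of 1 replicate number leading in every group that 7.06% of genes share. In spheres this order, like the folds above, rests on values near the filter level.

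Markers of platelets and megakaryocytes moved with Clec1b. Of 13 markers listed, 10 were tested, and 8 of them were lower in spheres at 24 h and 7 at 48 h, with median differences of -1.96 and -1.71. Among all genes 13.6% were lower at 24 h and 22.3% at 48 h. The mean log2 level over the 10 ran from 4.90 to 5.08 in spheres and 6.18 to 6.67 outside at 24 h, and from 4.76 to 5.04 in spheres and 5.41 to 6.43 outside at 48 h. None of these markers was at or under the filter level on all arrays, but in-sphere values of several lay near it. Gp1bb, a subunit of the von Willebrand factor receptor, differed by -3.24 ± 0.49 at 24 h (adjusted p = 0.00042) and -1.96 ± 0.49 at 48 h (adjusted p = 0.00737). The integrin subunit Itgb3 differed by -3.18 ± 0.32 (adjusted p = 2.59e-05) and -2.94 ± 0.32 (adjusted p = 2.75e-05), or by -1.66 (adjusted p = 8.68e-05) and -1.63 (adjusted p = 5.98e-05) over the mean of its probe sets.

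The lowest outside array of Clec1b was also the lowest for some other platelet genes. Gp9, another subunit of the von Willebrand factor receptor, was 4.64, 5.78 and 5.65 outside at 24 h. In spheres it was then 2.82, 2.71 and 3.12, near the filter level, a difference of -2.47 ± 0.28 (adjusted p = 6.34e-05). At 48 h Gp9 was 4.19, 4.81 and 5.07 outside. Gp1bb was 5.69, 6.56 and 6.17 outside at 24 h and 3.52, 5.27 and 5.77 at 48 h. That array was replicate 1 for Clec1b and for both genes at both times. Outside at 24 h, replicate 1 was not the lowest for Pf4 (12.18, 11.85 and 12.16) or Ppbp (10.00, 9.83 and 9.76). Nor was it for the marker Gp6 (3.29, 3.48 and 3.28), though at 48 h it was the lowest for all of these. The part of platelets or megakaryocytes in the Clec1b difference was not tested. The 2 markers that were higher in spheres, named after their values had been seen, were the chemokines Pf4 and Ppbp. Pf4 differed by 0.54 ± 0.14 at 24 h (adjusted p = 0.00958) and 1.16 ± 0.14 at 48 h (adjusted p = 4.48e-05). Ppbp differed by 1.30 ± 0.28 (adjusted p = 0.00384) and 1.50 ± 0.28 (adjusted p = 0.00114).

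**Figure D2:**
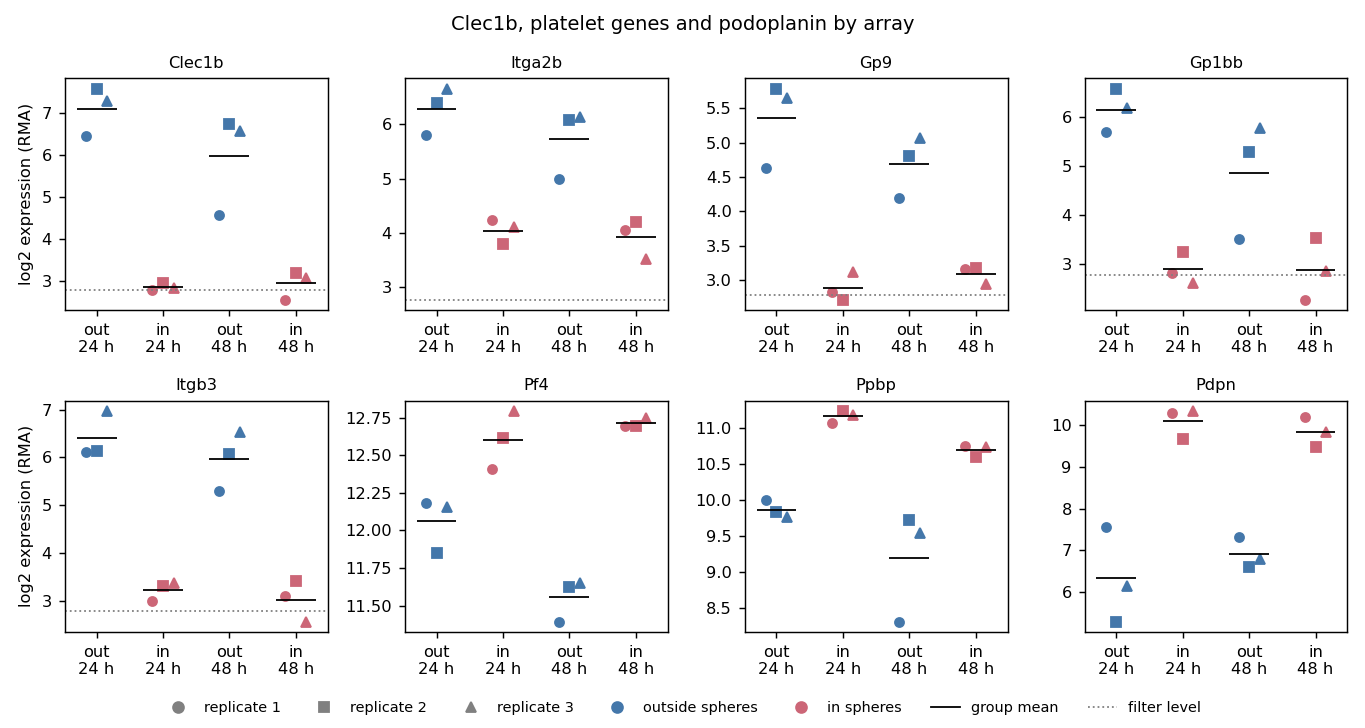
Log2 RMA expression (vertical axis) of Clec1b, 6 platelet genes and podoplanin in each array, by compartment and time, with replicates as marker shapes, group means as lines and the filter level as a dotted line. Clec1b, Itga2b, Gp9, Gp1bb and Itgb3 are lower in spheres, with replicate 1 lowest outside at both times, while Pf4, Ppbp and Pdpn are higher in spheres.

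The ligand of Clec1b moved the other way. Podoplanin (Pdpn), a mucin-like membrane protein of stromal, tumour and some macrophage cells, was 10.29, 9.67 and 10.34 in spheres and 7.55, 5.29 and 6.16 outside at 24 h. At 48 h it was 10.20, 9.49 and 9.84 in spheres against 7.31, 6.61 and 6.80 outside. No in-sphere array overlapped an outside one, with differences of 3.76 ± 0.44 (adjusted p = 7.62e-05) and 2.94 ± 0.44 (adjusted p = 0.000281). Of 4 genes for endogenous ligands of the receptors, 3 were higher at both times, where 15.8% and 15.2% of all genes were. The medians were 0.86 and 0.64. Sf3b3, the spliceosome protein SAP130 that Clec4e binds when cells die, differed by 1.12 ± 0.14 (adjusted p = 0.000112) and 0.76 ± 0.14 (adjusted p = 0.00113). Vimentin (Vim), an intermediate filament protein reported to bind Clec7a, differed by 0.59 ± 0.12 (adjusted p = 0.00223) and 0.53 ± 0.12 (adjusted p = 0.00354). Lgals9, galectin-9, did not pass at either time.

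Genes typical of other cells are given beside Pdpn. Over all genes 15.8% were higher and 13.6% lower at 24 h, and 15.2% higher and 22.3% lower at 48 h. Of 11 fibroblast and stromal markers tested, 5 were higher and 2 lower in spheres at 24 h, and 6 were higher and 3 lower at 48 h, with median differences of 0.46 and 1.21. The count lower at 24 h was 1 when any of 8 arrays was left out. Their mean log2 level was 5.44 to 6.13 in spheres and 4.74 to 5.12 outside at 24 h, and 5.87 to 6.03 against 4.71 to 5.49 at 48 h. Col3a1, a fibrillar collagen, differed by 2.64 ± 0.31 (adjusted p = 7.08e-05) and 3.28 ± 0.31 (adjusted p = 9.75e-06). Dcn, a matrix proteoglycan, differed by 2.60 ± 0.55 (adjusted p = 0.00355) and 2.98 ± 0.55 (adjusted p = 0.00108), and the surface protein Thy1 by 2.36 ± 0.23 (adjusted p = 2.17e-05) and 2.04 ± 0.23 (adjusted p = 3.71e-05). The lower ones, named after their values were seen, were the collagen Col1a1 at -0.60 ± 0.21 (adjusted p = 0.0452) and -1.23 ± 0.21 (adjusted p = 0.000619), the smooth muscle actin Acta2 at -0.76 ± 0.17 (adjusted p = 0.00463) and -0.83 ± 0.17 (adjusted p = 0.00206) and, at 48 h, the surface protease Fap at -0.70 ± 0.24 (adjusted p = 0.0363). Of 12 neuroblastoma and neural markers tested, 2 were higher at 24 h, where 15.8% of all genes were, and 3 at 48 h, where 15.2% were, led by the growth cone protein Gap43 at 3.99 ± 0.30 (adjusted p = 4.41e-06) and 4.41 ± 0.30 (adjusted p = 1.38e-06), with 1 of 3 outside arrays above the filter level at 48 h. The median difference of the 12 was 0.0 at both times. Their mean level was 3.43 to 3.63 in spheres against 3.08 to 3.20 outside at 24 h, and 3.49 to 3.59 against 2.94 to 2.98 at 48 h, and Chga and Tubb3 were at or under the filter level on all 12 arrays. Several of those tested also lay near that level, such as Hand2 at 2.35 to 2.95 and Isl1 at 2.61 to 2.95 over the arrays. The median of 0.0 includes these dim genes. The part of tumour or stromal cells in the Pdpn difference was not tested.

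**Figure D3:**
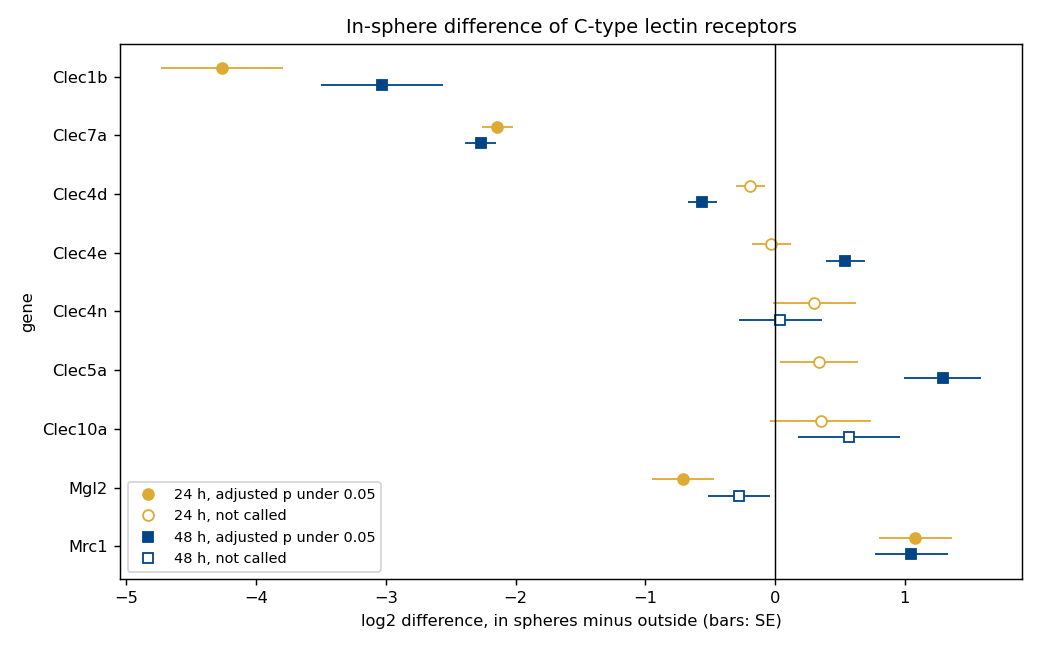
Log2 difference in spheres minus outside (horizontal axis) with its standard error for the 9 receptors at 24 h (circles) and 48 h (squares), filled where the adjusted p was under 0.05. Differences run from -4.26 for Clec1b to 1.29 for Clec5a, and Clec4d, Clec4e and Clec5a are filled at 48 h alone.

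The Fc receptor gamma-coupled receptors Clec4d, Clec4e and Clec4n, which bind microbial glycolipids and mannans, did not move as a group. For Clec4d, log2 expression at 24 h was 11.90, 11.67 and 11.71 in spheres and 12.08, 11.84 and 11.91 outside, which overlap. Within experiments 1 to 3 the differences were -0.18, -0.17 and -0.20, and the fitted difference of -0.19 ± 0.11 did not pass (adjusted p = 0.239), nor did it with the experiment number as a block (adjusted p = 0.214). With array weights it did, at an adjusted p of 0.0226 within a range of 0.0226 to 0.556 over the 22 alternatives. At 48 h the values were 11.63, 11.60 and 11.63 in spheres against 12.25, 12.10 and 12.19 outside. These do not overlap, and Clec4d was lower in spheres by -0.56 ± 0.11, or 1.47-fold (adjusted p = 0.00173). The probe set of Clec4d, like that used for Clec4n, is of a type that can share probes with related genes.

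Clec4e (Mincle), which recognises mycobacterial cord factor and SAP130, did not pass at 24 h. Its values were 10.35, 10.65 and 10.71 in spheres and 10.49, 10.64 and 10.68 outside, a difference of -0.03 ± 0.15 (adjusted p = 0.90). At 48 h they were 10.54, 10.29 and 10.34 in spheres and 9.71, 10.14 and 9.70 outside. The groups do not overlap, and Clec4e was higher in spheres by 0.54 ± 0.15, or 1.45-fold (adjusted p = 0.013). The outside arrays at 48 h form the lowest of the 4 groups, with a mean of 9.85 against 10.39 to 10.61 in the others.

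The 48 h call of Clec4e depends on the probe set. Another probe set of the gene, of lower mean, gave 6.95, 7.00 and 6.60 in spheres and 6.73, 7.30 and 6.88 outside at 48 h. Its groups overlap, with a difference of -0.12 ± 0.18 (adjusted p = 0.641), and the mean of both probe sets gave 0.21 ± 0.16 (adjusted p = 0.315). The call was also lost without replicate 1 or replicate 3 of the outside arrays at 48 h (adjusted p of 0.0556 and 0.0582; over all 22 alternatives 0.00277 to 0.641). Clec4e and Clec4d are thus neighbours with a higher and a lower call in the same contrast, of which the Clec4d call held in all 22 alternatives (adjusted p of 6.36e-05 to 0.0347).

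Clec4n varied more between experiments than between compartments. At 24 h its values were 10.12, 9.31 and 9.37 in spheres and 9.79, 8.77 and 9.33 outside, and at 48 h 9.50, 8.90 and 8.89 in spheres and 9.62, 8.61 and 8.96 outside. Replicate 1 was the highest array in all 4 groups. The differences of 0.30 ± 0.32 (adjusted p = 0.538) and 0.04 ± 0.32 (adjusted p = 0.943) did not pass. A further probe set gave 0.20 ± 0.36 and 0.08 ± 0.36, also with replicate 1 highest in each group.

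**Figure D4:**
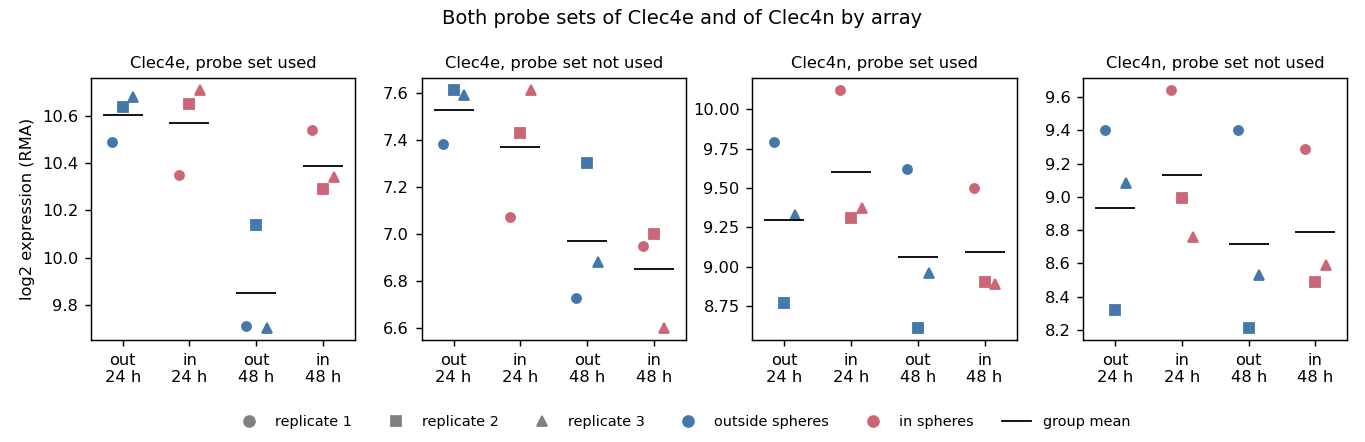
Log2 RMA expression (vertical axis) from both probe sets of Clec4e and both of Clec4n in each array, by compartment and time, with replicates as marker shapes and group means as lines. At 48 h the Clec4e probe set used separates the compartments and the other does not, while both Clec4n probe sets have replicate 1 as the highest array of each group.

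Clec5a (MDL-1), which pairs with DAP12 and binds viral and neutrophil-derived ligands, was higher in spheres at 48 h. Its values were 9.01, 8.19 and 8.48 in spheres and 6.89, 7.78 and 7.15 outside, with no overlap. The difference was 1.29 ± 0.30, or 2.44-fold (adjusted p = 0.00547), and it passed in all 22 alternatives (adjusted p of 0.00154 to 0.0268). At 24 h the values were 8.21, 8.82 and 8.08 in spheres and 7.69, 8.58 and 7.83 outside. These overlap, and the difference of 0.34 ± 0.30 did not pass (adjusted p = 0.463). Group means ran from 8.56 in spheres at 48 h through 8.37 in spheres at 24 h and 8.03 outside at 24 h to 7.28 outside at 48 h.

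Granulocyte markers are given beside these receptors because granulocytes also carry Clec4d, Clec4e, Clec5a and Clec7a. Of 14 tested, 0 were higher in spheres at 24 h. The 1 higher at 48 h, named after its value was seen, was Prtn3 (2.15 ± 0.32, adjusted p = 0.000253). Of the 14, 9 were lower at each time, where 13.6% of all genes were at 24 h and 22.3% at 48 h. The mean log2 level was 8.47 to 9.24 in spheres and 9.59 to 10.18 outside at 24 h, and 7.96 to 8.59 in spheres and 8.85 to 9.52 outside at 48 h. Camp, an antimicrobial granule peptide, differed by -2.17 ± 0.43 (adjusted p = 0.00264) and -2.99 ± 0.43 (adjusted p = 0.000215). Csf3r, the receptor of granulocyte colony-stimulating factor, differed by -2.14 ± 0.30 (adjusted p = 0.000283) and -2.54 ± 0.30 (adjusted p = 5.29e-05), and lactoferrin (Ltf) by -1.95 ± 0.32 (adjusted p = 0.000768) and -3.09 ± 0.32 (adjusted p = 2e-05). The granule proteases Elane and Ctsg and the peroxidase Mpo, named after their values were seen, had 48 h differences of 0.80 ± 0.39 (adjusted p = 0.128), 1.04 ± 0.39 (adjusted p = 0.0522) and 0.62 ± 0.46 (adjusted p = 0.31), which did not pass. At 24 h these genes and Prtn3 were not called, though each in-sphere mean was above the outside mean. Prtn3 was then 7.62, 8.72 and 8.51 in spheres and 7.39, 8.11 and 7.19 outside. Mpo was 6.82, 8.80 and 8.58 in spheres and 7.37, 7.85 and 7.09 outside. With the replicate block more granulocyte markers were called higher at both times. At 48 h Clec7a and Clec4d had the same sign as the 9 lower markers and Clec5a the opposite one, while the sign of Clec4e depended on the probe set, at 0.54 and -0.12. The part of granulocytes in the Clec7a and Clec4d differences was not tested.

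Mrc1, the mannose receptor, was higher in spheres at both times. Its values at 24 h were 8.98, 9.01 and 9.32 in spheres and 8.45, 7.29 and 8.33 outside. At 48 h they were 10.19, 9.93 and 9.99 in spheres and 9.20, 8.52 and 9.25 outside. The compartments did not overlap at either time, and replicate 2 was the lowest outside array at both times. The difference was 1.08 ± 0.28 at 24 h, or 2.11-fold (adjusted p = 0.0111), and 1.05 ± 0.28 at 48 h, or 2.06-fold (adjusted p = 0.0108). Without replicate 2 of the outside arrays at 24 h the earlier difference was 0.71 ± 0.21 with an adjusted p of 0.0297, against 0.00264 to 0.0419 over all 22 alternatives. Without replicate 2 of the outside arrays at 48 h the later difference was 0.81 ± 0.29 with an adjusted p of 0.0512, against 0.00134 to 0.0512 over all 22 alternatives.

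Clec10a and Mgl2, adjacent paralogs whose signals may not be fully separate, did not share the Mrc1 pattern by their own calls; the differences between these genes were not tested. For Clec10a the values at 24 h were 6.17, 5.48 and 5.54 in spheres and 5.39, 5.11 and 5.65 outside, and at 48 h 6.02, 4.35 and 4.40 in spheres and 3.85, 4.65 and 4.58 outside. Both comparisons overlap, and the differences of 0.35 ± 0.39 (adjusted p = 0.571) and 0.57 ± 0.39 (adjusted p = 0.284) did not pass. The 48 h value rests on replicate 1. Without the in-sphere array of that replicate it was 0.02, and within experiments 1 to 3 the differences were 2.17, -0.29 and -0.18.

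Mgl2 was dim throughout. At 24 h its values were 2.87, 3.12 and 2.70 in spheres and 3.19, 4.11 and 3.51 outside, and the difference of -0.71 ± 0.24, or 1.63-fold lower in spheres, was just past the threshold (adjusted p = 0.0438). The call was lost in 12 of 21 alternatives, among them without replicate 2 of the outside arrays at 24 h, where the difference was -0.45 (adjusted p = 0.173; range over alternatives 0.0101 to 0.173). It was also lost without replicate 1 or 3 in spheres or replicate 3 outside at 24 h, and, with the difference at -0.71 as before, without replicate 2 in spheres or any outside array at 48 h. At 48 h all arrays of both groups were at or under the filter level, and no fold is given. With 1.08 for Mrc1 and -0.71 for Mgl2 at 24 h, these markers of alternative activation carried calls of opposite sign.

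Other genes of the interleukin-4 response were likewise called in both directions. Of 14 tested, 5 were higher and 3 lower in spheres at 24 h, and 4 were higher and 5 lower at 48 h, with medians of 0.02 and -0.02. Called were 57.1% and 64.3% of them, against 29.4% and 37.5% of all genes. With arrays centred on their medians the 48 h split was 4 higher and 3 lower, and 3 were lower without replicate 2 or replicate 3 outside at 48 h. The arginine-degrading enzyme Arg1 differed by 4.22 ± 0.93 (adjusted p = 0.0047) and 4.83 ± 0.93 (adjusted p = 0.00151), and the transcription factor Klf4 by 1.55 ± 0.17 at 48 h (adjusted p = 2.31e-05). The transglutaminase Tgm2 was higher by 1.16 ± 0.25 at 24 h (adjusted p = 0.00379). Lower were Cd200r1, an inhibitory receptor, at -1.38 ± 0.18 (adjusted p = 0.000166) and -1.65 ± 0.18 (adjusted p = 2.79e-05), and the chitinase-like protein Chil3 at -1.64 ± 0.24 at 48 h (adjusted p = 0.000208). Retnla, a secreted protein induced by interleukin-4, was lower by at least 0.91 on the log2 scale at 24 h, measured from the outside mean to the filter level, which no in-sphere array exceeded (adjusted p = 0.000298).

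Dendritic cell markers are given because Mgl2, Clec10a and Mrc1 also mark subsets of those cells. Of 7 tested, 1 was higher at 24 h, and 1 was higher and 1 lower at 48 h, with median differences of -0.11 and 0.02. The share called was 14.3% and 28.6%, below the 29.4% and 37.5% of all genes. The mean level was 4.05 to 4.23 in spheres and 3.92 on every outside array at 24 h, and 3.94 to 4.10 against 3.64 to 3.94 at 48 h, and Xcr1 was at or under the filter level on all arrays. The actin-bundling protein Fscn1 was the one higher, by 1.90 ± 0.30 (adjusted p = 0.00056) and 2.25 ± 0.30 (adjusted p = 0.000114), or by 0.65 (adjusted p = 0.00226) and 0.62 (adjusted p = 0.00231) over the mean of its probe sets, and the integrin Itgax was lower by -1.03 ± 0.23 at 48 h (adjusted p = 0.00435). Their part in the Mrc1 and Mgl2 differences was not tested.

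Between 24 h and 48 h no receptor difference passed in the fit without a block. The median log2 difference of the receptors was -0.13 in spheres and -0.76 outside, beside -0.0689 and 0.0311 for all genes tested. Clec5a differed by 0.19 in spheres and -0.76 outside. In spheres 0 of 9 were called, where 0% of all genes were, and 2 had an unadjusted p under 0.05, against 10.7% of all genes. Outside spheres 0 of 9 were called, where 0.336% of all genes were, and 6 had an unadjusted p under 0.05, against 10.8% of all genes. Arrays of the times did not overlap for 2 receptors in spheres, Clec4d and Mrc1, against 13.8% of genes. Outside they did not overlap for 5, Clec4d, Clec4e, Clec10a, Mgl2 and Mrc1, against 22.1%. Outside, Clec4e had a difference of -0.76 ± 0.15 (adjusted p = 0.0651). Mgl2 had an outside mean of 3.61 at 24 h and was at or under the filter level on all outside arrays at 48 h, so its difference has only a bound of at least 0.83 on the log2 scale (adjusted p = 0.122). With the experiment number as a block both passed, at adjusted p of 0.0435 and 0.0451, where 1.27% of all genes did. Over all alternatives the adjusted p ran from 0.0123 to 0.247 for Clec4e and from 0.0283 to 0.356 for Mgl2.

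Mrc1 had time differences of like size in both compartments, 0.93 ± 0.28 in spheres (adjusted p = 0.282) and 0.97 ± 0.28 outside (adjusted p = 0.175), neither past the threshold. For Clec10a the outside time difference was -1.03 ± 0.39 (adjusted p = 0.35) and that in spheres -0.81 ± 0.39 (adjusted p = 0.495). The change of the in-sphere difference from 24 h to 48 h was called for 0 of the 9 receptors and for 0% of all genes, and 3 receptors had an unadjusted p under 0.05, against 12.3% of genes. These were Clec4d at -0.37 ± 0.15 (adjusted p = 0.357), Clec4e at 0.58 ± 0.21 (adjusted p = 0.306) and Clec5a at 0.95 ± 0.43 (adjusted p = 0.396). A call at 48 h without one at 24 h is therefore not shown to be a difference between the times.

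Adaptors, kinases and phosphatases that carry the signals of these receptors were mostly lower in spheres where called. Of 25 tested, 13 were lower and 1 higher at 24 h, and 14 were lower and 1 higher at 48 h (2 higher at 24 h without replicate 1 in spheres), with medians of -0.42 and -0.45. Among all genes 13.6% were lower and 15.8% higher at 24 h, and 22.3% lower and 15.2% higher at 48 h. With arrays centred on their medians the 48 h counts were 10 lower and 2 higher. The one higher at both times, named after its values were seen, was Malt1, the protease of the Card9 and Bcl10 complex, at 0.90 ± 0.24 (adjusted p = 0.0122) and 1.16 ± 0.24 (adjusted p = 0.0023). At 24 h the widest differences were those of the adaptor Hcst (DAP10) at -1.33 ± 0.16 (adjusted p = 7.26e-05), the linker Blnk at -1.21 ± 0.24 (adjusted p = 0.00222), the kinase Btk at -1.21 ± 0.28 (adjusted p = 0.00677) and the transcription factor Nfatc1 at -1.08 ± 0.20 (adjusted p = 0.0016). With array weights the Btk value was -0.72 (adjusted p = 0.0224). At 48 h they were the Src-family kinase Fgr at -1.77 ± 0.22 (adjusted p = 7.6e-05), Nfatc1 at -1.56 ± 0.20 (adjusted p = 8.84e-05), Blnk at -1.49 ± 0.24 (adjusted p = 0.000394) and the ubiquitin ligase Cbl at -1.20 ± 0.17 (adjusted p = 0.000191). Over the mean of its probe sets Nfatc1 was at -0.37 at 24 h (adjusted p = 0.127) and -0.66 at 48 h (adjusted p = 0.00884).

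The adaptors of the receptors themselves were singled out after their values were seen. Tyrobp, through which Clec5a signals, was 12.13, 12.14 and 12.17 in spheres against 12.50, 12.48 and 12.57 outside at 24 h, and 12.05, 12.19 and 12.06 against 12.68, 12.67 and 12.72 at 48 h. It was lower without overlap, by -0.37 ± 0.096 (adjusted p = 0.011) and -0.59 ± 0.096 (adjusted p = 0.000475), while Clec5a was higher at 48 h. Fcer1g, which pairs with Clec4d, Clec4e and Clec4n, had differences of -0.09 ± 0.11 (adjusted p = 0.606) and -0.11 ± 0.11 (adjusted p = 0.429). Syk had -0.76 ± 0.49 (adjusted p = 0.28) and -0.89 ± 0.49 (adjusted p = 0.173), with a wide error in which replicate 3 outside at 24 h was 3.38 beside 5.49 and 5.75.

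**Figure D5:**
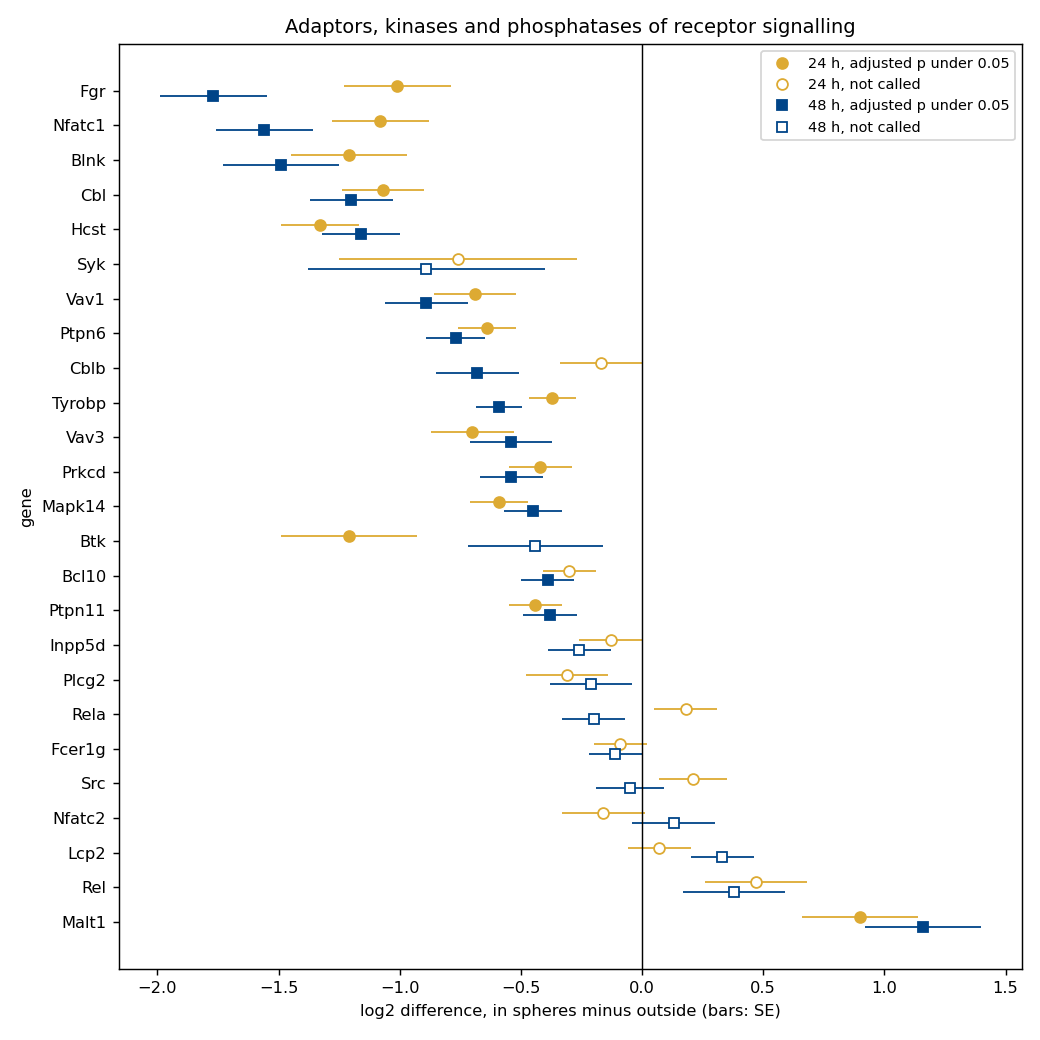
Log2 difference in spheres minus outside (horizontal axis) with its standard error for the 25 signalling genes tested, at 24 h (circles) and 48 h (squares), filled where the adjusted p was under 0.05 and sorted by the 48 h value. Most filled points lie left of 0, from -1.77 for Fgr, and Malt1 is the one gene filled on the right.

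Genes known to be induced through Syk-coupled C-type lectin receptors, which other receptors such as those of the Toll family induce as well, included calls in both directions at 24 h and only higher calls at 48 h. Of 16 tested, 2 were higher and 4 lower in spheres at 24 h, and 8 were higher and 0 lower at 48 h, with medians of 0.00 and 0.67. Among all genes 15.8% were higher and 13.6% lower at 24 h, and 15.2% higher and 22.3% lower at 48 h. Leaving out replicate 2 of the outside arrays at 48 h left 5 higher at that time, and leaving out replicate 1 or 2 in spheres or replicate 1 or 3 outside at 24 h left 2 lower at 24 h. The difference between the times was not tested for the list. At 24 h the growth factor Csf2 was 5.21, 4.49 and 4.50 in spheres and 2.66, 2.57 and 3.21 outside, a difference of 1.92 ± 0.28 (adjusted p = 0.000338). Lower at 24 h were the early transcription factors Egr1 at -0.83 ± 0.13 (adjusted p = 0.000583) and Nr4a1 at -0.69 ± 0.12 (adjusted p = 0.00121), and the cytokine Il10 at -0.72 ± 0.24 (adjusted p = 0.0402). The Il10 call was lost without replicate 1 or 2 in spheres or any outside array at 24 h, or replicate 2 outside at 48 h, with adjusted p of 0.0511 to 0.164 and a difference of -0.47 without in-sphere replicate 1.

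At 48 h the widest differences of these genes were toward the spheres. The cytokine Il6 was 6.44, 6.02 and 4.85 in spheres and 3.37, 4.11 and 4.59 outside, with no overlap, a difference of 1.75 ± 0.37 (adjusted p = 0.00296). The inflammasome sensor Nlrp3 differed by 1.33 ± 0.16 (adjusted p = 5.52e-05), the prostaglandin synthase Ptgs2 by 1.33 ± 0.15 (adjusted p = 4.06e-05) and the chemokine Cxcl1 by 1.16 ± 0.34 (adjusted p = 0.0171). The Cxcl1 call was lost without replicate 2 of the outside arrays at 48 h (0.92, adjusted p = 0.0755) or replicate 3 of the in-sphere arrays at 48 h (0.96, adjusted p = 0.0679). These genes include calls toward the spheres at 48 h, when Clec7a was lower there, and a link between their levels and that of Clec7a was not tested. No sample in which a receptor was engaged or blocked was part of the design.

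Other C-type lectin-like receptors, of which 22 of 38 listed were tested, were called in both directions. At 24 h 2 were higher and 4 lower in spheres, and at 48 h 3 were higher and 5 lower, or 3 and 3 with arrays centred on their medians. The share called, 27.3% and 36.4%, was near that of all genes, 29.4% and 37.5%, and does not set the list apart. Single arrays moved these small counts, to 1 higher or 2 lower at 24 h and to 1 higher or 3 lower at 48 h. Cd302, an endocytic receptor of the mannose receptor type, was lower by -1.14 ± 0.20 (adjusted p = 0.00125) and -1.35 ± 0.20 (adjusted p = 0.000267). Clec2d, a ligand of natural killer cell receptors, was lower by -1.48 ± 0.28 at 24 h (adjusted p = 0.00194), and Olr1, the oxidised lipoprotein receptor next to Clec7a in the genome, by -1.32 ± 0.35 (adjusted p = 0.0135). The Olr1 call was lost without replicate 1 in spheres (-1.10, adjusted p = 0.0649) or replicate 2 outside (-1.12, adjusted p = 0.0577) at 24 h. Cd72, an inhibitory receptor, was higher by 1.03 ± 0.32 at 24 h (adjusted p = 0.0265), a call lost without any of 4 arrays of that time in turn, with adjusted p of 0.0843 to 0.0992.

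At 48 h the widest difference was that of Cd69, an early activation antigen of leukocytes. Its values were 9.54, 9.70 and 9.65 in spheres and 6.40, 7.39 and 7.07 outside, a difference of 2.68 ± 0.27 (adjusted p = 1.47e-05). Clec4b1, a further gene of the Dectin-2 family, was lower by -1.07 ± 0.25 (adjusted p = 0.00472), and Clec11a, a secreted growth factor for blood and bone cells, by -1.02 ± 0.24 (adjusted p = 0.0053). Clec11a was 2.99, 2.81 and 2.52 in spheres, near the filter level, and 3.57, 3.39 and 4.42 outside. Its difference ran from -1.22 to -0.7 over 21 alternatives. The endocytic receptor Mrc2, a relative of Mrc1 chosen after its values were seen, was higher by 0.99 ± 0.22 (adjusted p = 0.0048) and 0.78 ± 0.22 (adjusted p = 0.0149).

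The label of the cells was compared with macrophage markers. All 11 markers tested were above the filter level, with a mean log2 level of 9.92 to 10.35 in spheres and 10.16 to 10.38 outside at 24 h, and 10.12 to 10.22 and 10.20 to 10.33 at 48 h, which overlap between compartments. Single markers still differed, 1 higher and 3 lower in spheres at 24 h, and 2 higher and 3 lower at 48 h, counts that ran to 2 higher or 6 lower at 24 h and 1 higher at 48 h when single arrays were left out. The share called was 36.4% and 45.5%, beside 29.4% and 37.5% of all genes. The engulfment receptor Mertk was lower by -0.91 ± 0.15 (adjusted p = 0.000887) and -1.25 ± 0.15 (adjusted p = 6.3e-05), and the lipopolysaccharide co-receptor Cd14 was higher by 0.54 ± 0.13 (adjusted p = 0.00715) and 1.09 ± 0.13 (adjusted p = 5.11e-05). Of the remaining marker lists, 1 of 3 erythroid genes tested was lower at both times. This was Hba-a1, with differences of -3.67 at 24 h and -1.82 at 48 h, or -1.04 at 48 h with array weights. Of 6 endothelial genes 1 was lower at 24 h and 0 at 48 h, and of 7 lymphocyte and natural killer cell genes 2 were lower at each time. Among all genes 13.6% were lower at 24 h and 22.3% at 48 h. The endothelial call, that of Emcn, was lost in 5 of 22 alternatives. Of the lymphocyte calls, Ms4a1 at 24 h was lost in 6 of 21 and Cd4 at 48 h in 7 of 22, while Cd3d held at both times. As a sign of RNA quality, the log2 difference between 3′ and 5′ control probe sets of beta-actin was 0.481 ± 0.127 (SD, n = 3) in spheres and 0.285 ± 0.0535 outside at 24 h, and 0.405 ± 0.0114 and 0.386 ± 0.0134 at 48 h. For GAPDH it was 0.157 ± 0.275 and 0.0522 ± 0.108 at 24 h, and 0.124 ± 0.0196 and 0.0794 ± 0.0235 at 48 h. The part of RNA quality in the receptor differences was not tested. Array medians over all probe sets ran from 3.03 to 3.17. Over the tested genes the third in-sphere array at 48 h was lower, with a median of 5.20 against 5.55 to 5.69 in the others. Without it and replicate 1 in spheres at 24 h, the other array of low weight, the calls of Clec1b, Clec7a, Clec4d, Clec4e, Clec5a and Mrc1 remained and that of Mgl2 was lost (adjusted p = 0.0619).

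The 3 genes most like each receptor were found by Pearson's r of log2 values over the 12 arrays, as a description. The 12 arrays share the split by compartment, and so r within the 6 outside and the 6 in-sphere arrays is given for the first gene. Clec1b was followed by Mmrn1, a protein of platelets and endothelium, with r of 0.988, and then by Hcar2 (0.983) and Dazap2 (0.981). For Mmrn1 r was 0.978 over the outside arrays and 0.238 over the in-sphere arrays, where Clec1b was near the filter level. Clec7a was followed by Atp6v1h, a subunit of the vacuolar proton pump, with r of 0.994 (0.802 outside and 0.417 in spheres), Washc2 (0.992) and Mgst1 (0.992).

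Among the gamma-chain-coupled receptors, Clec4d was most like the kinase gene Map3k2 with r of 0.982 (0.952 outside and 0.935 in spheres), Igf1 (0.977) and Rab5b (0.969). Clec4e was most like Spata13 with 0.948 (0.948 and 0.992), F10 (0.918) and Atrnl1 (0.911), and Clec4n like Crip1 with 0.883 (0.977 and 0.903), Sgk2 (0.865) and Scara5 (0.847). Clec5a was most like Ska1, a protein of the mitotic spindle, with 0.954 (0.967 and 0.829), then Cdc7 (0.944) and the urokinase receptor gene Plaur (0.940). Mrc1 was most like Ensa with 0.952 (0.990 and 0.841), Tial1 (0.937) and Tgfbr2 (0.932). Clec10a was most like Mdrl with 0.865 (0.738 and 0.950), Gpx1 (0.857) and Etfdh (0.846), and Mgl2 like Plcb1 with 0.943 (0.969 and 0.904), Klrb1f (0.938) and Suco (0.931). No receptor appeared among the 3 genes most like another receptor.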

How the data were processed

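Expression was measured on 12 Affymetrix mouse arrays, 4 groups of 3 independent experiments. Probe set values were deposited on a log2 scale. According to the submitters' processing notes, the authors obtained them by RMA, using Affymetrix Expression Console 1.1. RMA normalises all arrays together and compresses differences of dim probe sets. The log base of 2 is taken from the range of the values.

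Platform annotation gave exactly 1 symbol to 28898 of 45141 probe sets, several to 551 and none to 15692. Symbols were checked through RefSeq identifiers, which matched 28689 of these probe sets and changed 0. Each gene was represented by its probe set of highest mean. Testing required a value above 2.77, which is the 40th percentile of the whole table, on at least 3 arrays. A model with 1 mean per group was fitted to all arrays with limma 3.58.1 under R 4.3.3, leaving 8 residual and 4.09 prior degrees of freedom. P-values were adjusted by Benjamini-Hochberg over all 12488 genes and called under 0.05. Errors are standard errors of that fit unless marked SD. The number of arrays limits the precision. The fit was tested on simulated data.

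The receptors, gene lists and marker lists were chosen with earlier results of these data known. Named genes follow a rule: all receptors, up to 4 called genes per list and comparison by size of difference, up to 3 per marker list, and the 3 genes most like each receptor. Exceptions are marked as chosen after their values were seen. Alternatives were the replicate block, other filters, the mean of all probe sets of a gene, fits of only the compared groups, a trended robust prior, array weights, centring each array, and leaving out each array. After the data were seen, another probe set of a gene and a fit without 2 in-sphere arrays of low weight were added.

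Replicate numbers come from the titles, and the series text describes independent experiments with both compartments from the same cultures. Deviations from the group means of same-numbered arrays correlated at 0.471, 0.473 and 0.419 between the outside groups. They correlated at 0.0215, 0.12 and 0.0813 between compartments at 24 h and at 0.117, 0.0417 and 0.112 at 48 h. The numbers were taken as pairing the arrays, which rests on the shared cultures and the outside arrays. The fit reported has no term for this pairing, which the replicate block adds. With the block, calls of Mgl2, Il10, Olr1 and Cd72 at 24 h remained (limma adjusted p of 0.0224, 0.00419, 0.00488 and 0.00063). So did that of Cxcl1 at 48 h (0.000414). These calls were lost in fits without a block that left out single arrays.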

Additional observations from a re-analysis of the deposited data

How the results depend on the processing

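Over the receptors, 922 of 976 values under an alternative kept their direction and their side of the threshold, 16 lost the call, 10 gained one and 28 changed sign. For other named genes these were 1684, 43, 3 and 1 of 1731. The counts of receptors called in the in-sphere comparisons stayed within 1.5 times in every alternative run. The count outside spheres between 24 h and 48 h, 0 in the fit reported, was 2 with the replicate block, 1 with the trended robust prior, 2 with array weights, 2 with arrays centred on the median, 1 without the 2 low-weight in-sphere arrays and 0 to 1 leaving out each array; the cause was not tested. The replicate block changed no other receptor call; among marker counts it moved the higher macrophage markers at 24 h from 1 to 2, and the higher granulocyte markers from 0 to 2 at 24 h and 1 to 3 at 48 h. Centring shifted every difference by -0.059 at 24 h and 0.118 at 48 h.

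The one called receptor value that changed sign was that of Clec4e at 48 h, which was -0.12 with the other probe set. The rest were uncalled values near 0. Between times in spheres, Clec1b was -0.01 without the 2 low-weight arrays and -0.04 to 0.28 leaving out each array, Clec4d was 0.02 with centring, and Clec5a was -0.25 with array weights and -0.03 to 0.41 leaving out each array. At 24 h Clec4e was 0.06 with array weights, 0.08 without the 2 low-weight arrays and -0.11 to 0.08 leaving out each array, and Clec4n was -0.04 with array weights. Leaving out each array, Clec4n was -0.19 to 0.32 at 48 h and -0.51 to 0.01 outside between times, and the endothelial gene Emcn was -0.09 to 0.54 at 48 h. For the change of the in-sphere difference, Clec7a was 0.05 with centring. Clec4n was 0.08 with array weights, 0.10 without the 2 low-weight arrays and -0.51 to 0.01 leaving out each array. Mrc1 was 0.02 with array weights, 0.14 with centring and -0.27 to 0.33 leaving out each array, and Clec10a was -0.33 to 0.51 leaving out each array. The causes were not tested.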
